A study of Mus musculus with 6 samples.

Results

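The aryl hydrocarbon receptor and 5 genes tied to it were examined in mouse CD4+ T cells treated with a MAPK13 inhibitor. The 6 genes are the receptor *Ahr*, its partner *Arnt*, its repressor *Ahrr*, and its target genes *Tiparp*, *Cyp1a1* and *Cyp1b1*. They were chosen by gene symbol, all 6 were found among the 35602 genes of the count table, and all 6 were found among the 34714 genes of the tables that hold the remaining pair of libraries.

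The receptor is a ligand-activated transcription factor of the bHLH-PAS family that binds dioxins, plant indoles and tryptophan metabolites. Without a ligand it is held in the cytoplasm by HSP90 and co-chaperones. With a ligand it enters the nucleus, pairs with ARNT and binds xenobiotic response elements near genes such as *Cyp1a1*. Among CD4+ T cells it is best known from helper cells that make IL-17 and IL-22 and from regulatory T cells.

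The study asked how blocking the kinase encoded by *Mapk13* alters gene expression in T cells. Its libraries come from splenic CD4+ T cells of mice, activated through CD3 and CD28 in culture and given either the inhibitor MAPK13-IN-1 or the solvent DMSO. There were 3 libraries per group, which came in 2 library batches. Replicates 2 and 3 of each group are labelled as wild type, and for these the authors deposited counts. The replicate 1 pair, whose labels give no genotype, came from a strand-specific mRNA library kit, and for it the authors deposited 1 normalized value per gene. These values are treated as FPKM, that is, scaled by gene length and by depth, although no source names their unit and it was inferred. In the labels of replicates 2 and 3 the inhibitor, at 17.1 µM, or DMSO was added once day 1 of stimulation had ended, whereas the design text of the series has the compound present throughout the 72 h of stimulation. The labels of the replicate 1 pair give no dose. No source states whether the replicates of a group came from separate mice or separate cultures, so p-values measure only the spread between these libraries, which may be technical. The labels name a single compound, with a single dose for replicates 2 and 3. Effects of MAPK13-IN-1 on other proteins therefore cannot be told apart from those of blocking MAPK13.

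Library totals ranged from 26874805 counts (DMSO replicate 2) to 33854760 counts (MAPK13-IN-1 replicate 2). Levels are given as CPM, the count relative to the library total after scaling by edgeR's TMM method. A gene seen with 0 counts may still have had up to 3, which equals 0.0845 to 0.116 CPM depending on the library. Such limits cover counting error only. The depth of the replicate 1 pair is unknown, its values sum to 405149.7 and 390729.2, and with 1 library per group it has no replicate check and no test.

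The CD4+ T cell label was checked against marker genes. *Cd4* stood at 275 and 276 CPM in the DMSO libraries and at 267 and 283 CPM in the MAPK13-IN-1 libraries. The 8 CD4 T cell markers found in the count table, of 9 listed, summed to 2626 and 2657 CPM in DMSO and to 1270 and 1454 CPM with MAPK13-IN-1, with *Il2ra* as the most abundant. By edgeR's quasi-likelihood test 7 of the 8 were lower with the inhibitor and *Cd4* was not called. For comparison, 31.5% of all genes tested were called higher and 32.3% lower. In bulk RNA, fewer cells of a type and less RNA per cell cannot be told apart. Transcripts of B cells were also present, since 6 B cell markers, led by *Pax5*, summed to 866 and 851 CPM in DMSO and to 1067 and 1078 CPM with MAPK13-IN-1, with 5 of the 6 called higher. The 2 CD8 T cell markers summed to 11.7 and 10.9 CPM in DMSO and to 5.49 and 7.85 CPM with MAPK13-IN-1, and both were called lower. In the replicate 1 pair their sum was 3.49 FPKM in DMSO and 8.39 FPKM with the inhibitor, opposite to the counts. NK or ILC and neutrophil markers each summed to at most 0.422 CPM, with *Klra8*, *S100a8* and *S100a9* at or under 3 counts in all 4 libraries.

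Of the 6 genes, 4 passed the filter on low counts and were tested, and 2 of these (*Tiparp* and *Ahrr*) were called at an adjusted p-value under 0.05 in the quasi-likelihood test of edgeR, adjusted over 16269 genes by the Benjamini-Hochberg method. *Tiparp* was the 1 gene that was higher with MAPK13-IN-1, *Ahrr* was the 1 gene that was lower, and *Ahr* and *Arnt* were not called. Across all 16269 genes tested the same rule called 10374 (63.8%), of which 5122 (31.5%) were higher and 5252 (32.3%) were lower. A call in 2 of 4 genes, with 1 in each direction, is therefore no more than the background of this comparison. *Cyp1a1* and *Cyp1b1* had too few counts to be tested and are given as counts.

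**Figure D1:**
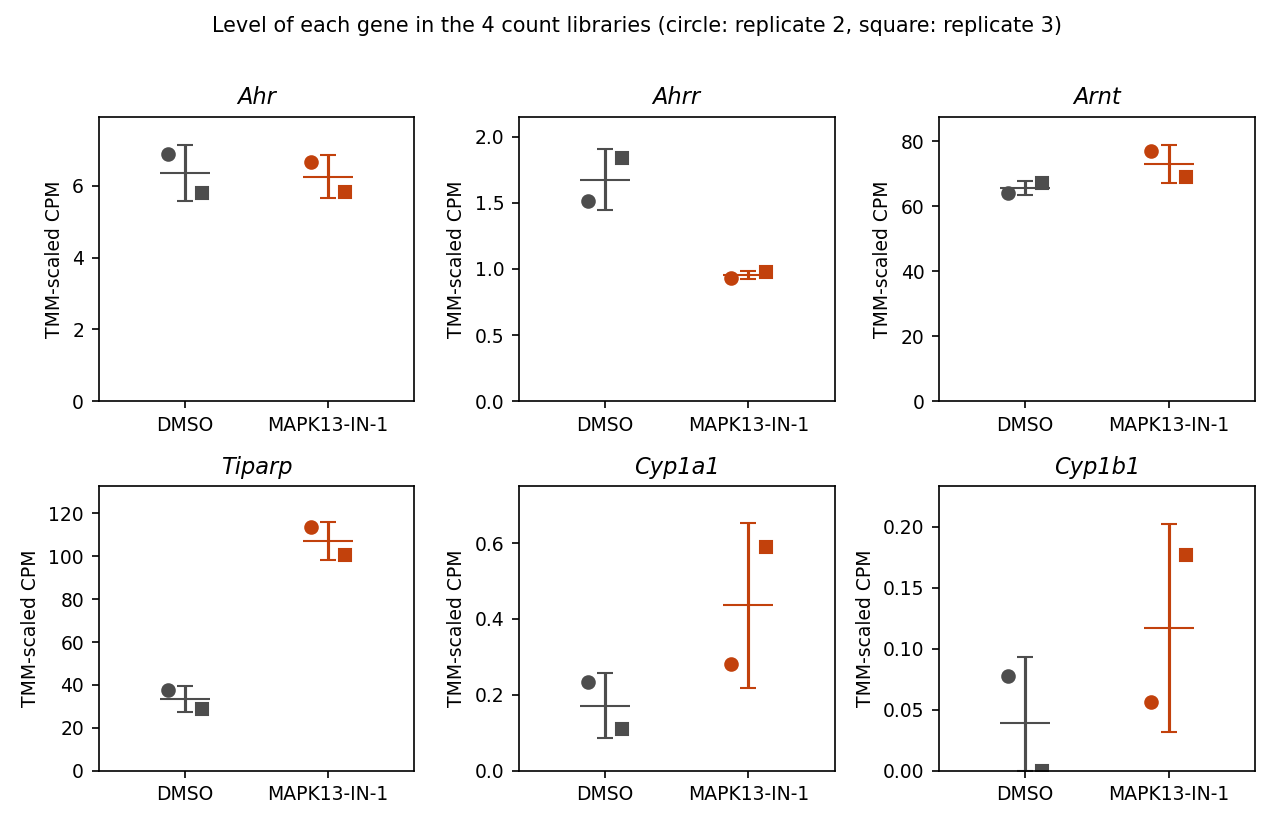
Each panel plots 1 gene, with TMM-scaled CPM on a linear vertical axis that starts at 0, for the DMSO and MAPK13-IN-1 libraries of replicates 2 (circles) and 3 (squares); horizontal bars are means and error bars are 1 SD (n = 2, the lower bar ends at 0). *Tiparp* at 101 and 114 CPM with MAPK13-IN-1 lies far above its DMSO libraries at 29.0 and 37.8 CPM, while the libraries of both groups overlap for *Ahr*.

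*Ahr* encodes the receptor itself. The DMSO libraries held 178 and 158 counts of it and the MAPK13-IN-1 libraries 237 and 198 counts. This corresponds to 6.90 and 5.81 CPM in DMSO and to 6.67 and 5.84 CPM with the inhibitor. The groups overlapped almost entirely, and in both of them replicate 2 was the higher library. The means were 6.35 ± 0.77 CPM in DMSO and 6.26 ± 0.59 CPM with MAPK13-IN-1 (SD, n = 2). The log2 fold change was −0.020 with a standard error of 0.16 (edgeR adjusted p = 0.922), and the 95% interval of the fold ran from 0.769 to 1.26, so a change of moderate size in either direction was not detectable with these libraries. The sign of so small a difference turned with the settings, from −0.15 to 0.10 on the log2 scale over 11 alternatives, none of which brought *Ahr* past the threshold (adjusted p from 0.580 to 0.978).

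In the replicate 1 pair the *Ahr* value was 1.55 FPKM in DMSO and 2.47 FPKM with MAPK13-IN-1. The treated library was thus the higher one here, with a log2 ratio of 0.44 on the scale of log2(FPKM + 1), which understates the change of low genes. For comparison, 9520 of the 15825 tested genes that these tables list were higher in that treated library, and the median log2 ratio over the 15825 genes was 0.069.

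*Arnt* encodes the partner that the receptor needs to bind DNA, and which hypoxia-inducible factors use as well. Its counts were 1651 and 1823 in DMSO and 2737 and 2336 with MAPK13-IN-1. On the CPM scale the DMSO libraries stood at 64.0 and 67.0 and the MAPK13-IN-1 libraries at 77.1 and 68.9. Both treated libraries lay above both DMSO libraries, though replicate 3 of the treated group did so by less than the distance between the DMSO libraries. The means were 65.5 ± 2.1 and 73.0 ± 5.8 CPM (SD, n = 2), and the log2 fold change of 0.16 (standard error 0.075) did not pass the threshold (edgeR adjusted p = 0.0913). The 95% interval of the fold was 0.993 to 1.25. The difference did pass with upper-quartile scaling (adjusted p = 0.0182), with library totals (adjusted p = 0.00758), with at least 10 counts required in every library (adjusted p = 0.0350) and without MAPK13-IN-1 replicate 3 (adjusted p = 0.000903), and over all 11 alternatives the adjusted p ranged from 0.000903 to 0.451.

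The replicate 1 pair gave 12.7 FPKM for *Arnt* in DMSO and 12.3 FPKM with MAPK13-IN-1. These values lie close together, with a log2 ratio of −0.038 and the treated library slightly the lower.

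*Ahrr* encodes the receptor's repressor, a related bHLH-PAS protein that is itself induced by the receptor and competes with it for ARNT. It was counted 39 and 50 times in DMSO and 33 times in each MAPK13-IN-1 library. The levels were 1.51 and 1.84 CPM in DMSO and 0.929 and 0.973 CPM with MAPK13-IN-1. Both treated libraries lay below both DMSO libraries, and they differed from each other by less than the DMSO libraries did. The means were 1.67 ± 0.23 and 0.951 ± 0.031 CPM (SD, n = 2), a log2 fold change of −0.82 with a standard error of 0.29 (edgeR adjusted p = 0.0314). The fold was 0.568 with a 95% interval of 0.362 to 0.892. The call rests on few counts and was lost without DMSO replicate 3 (log2 fold change −0.68, adjusted p = 0.205), without MAPK13-IN-1 replicate 2 (−0.78, adjusted p = 0.0701), with library totals (−0.69, adjusted p = 0.0594) and with DESeq2 (−0.81, adjusted p = 0.247), while the fitted value was negative under all 11 alternatives and the adjusted p ranged from 0.0217 to 0.247.

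The replicate 1 pair pointed the other way for *Ahrr*, at 0.394 FPKM in DMSO and 0.576 FPKM with MAPK13-IN-1. The log2 ratio was 0.18, and the difference between the 2 library batches was not tested.

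*Tiparp* encodes a mono-ADP-ribosyltransferase that is induced by the activated receptor and that modifies the receptor in a negative feedback loop. Its counts were 976 and 789 in the DMSO libraries and 4034 and 3419 in the MAPK13-IN-1 libraries. Scaled, these were 37.8 and 29.0 CPM in DMSO and 114 and 101 CPM with the inhibitor. The groups were far apart, and the gap between them exceeded the distance between the replicates of either group several times over. The means were 33.4 ± 6.2 and 107 ± 9.0 CPM (SD, n = 2), a log2 fold change of 1.68 with a standard error of 0.11 (edgeR adjusted p = 7.13e-07) and a fold of 3.21 with a 95% interval of 2.70 to 3.82. Of all genes tested, 6.86% had a larger log2 fold change. *Tiparp* was called under all 11 alternatives, with log2 fold changes of 1.49 to 1.87.

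In the replicate 1 pair *Tiparp* was also higher with MAPK13-IN-1, at 3.80 FPKM against 2.16 FPKM in DMSO. The plain ratio of the 2 values was 1.76. On the scale of log2(FPKM + 1), which understates the change of low genes, the log2 ratio was 0.60. With 0.1 added in place of 1 it was 0.79. Both log2 ratios were smaller than the log2 fold change of the counts, which was 1.68. Whether the size of the change differed between the library batches was not tested.

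Markers of other cell types moved in the same libraries as *Tiparp*. Per the paper, the splenic cells had been purified with a kit for isolating CD4 T cells. Among all genes tested 31.5% were called higher and 32.3% lower, beside which the calls of these markers stand. The 8 macrophage or monocyte markers, led by *Cd68*, summed to 13.6 and 12.0 CPM in DMSO and to 42.2 and 35.0 CPM with MAPK13-IN-1. Of these, 6 were tested and 5 were called higher. The 6 dendritic cell markers, led by *Zbtb46*, summed to 19.1 and 19.4 CPM in DMSO and to 59.0 and 49.2 CPM with the inhibitor. Of these, 4 were tested and called higher, but *Xcr1*, with 0 and 4 counts in DMSO, passed the filter on low counts only through the treated libraries. The sums are thus higher in both treated libraries for both cell types, and none of these markers was at or under 3 counts in all 4 libraries. However, *Fcgr1*, *C1qa*, *Siglech* and *Clec9a* exceeded 3 counts only in MAPK13-IN-1 replicate 2, at 6, 11, 6 and 6 counts. Erythroid markers, led by *Hbb-bs*, summed to 5.58 and 5.40 CPM in DMSO and to 56.1 and 41.4 CPM with the inhibitor, with 3 of 4 tested markers called higher, and the stromal or endothelial markers summed to 43.4 and 41.6 CPM in DMSO and 79.2 and 74.8 CPM with MAPK13-IN-1. Most of that last sum was *Pecam1*, at 39.8 and 36.9 CPM in DMSO and 75.4 and 70.3 CPM with the inhibitor, and of the 3 stromal or endothelial markers tested 1 was higher (*Pecam1*), 1 was lower (*Pdgfrb*) and 1 was not called. In the replicate 1 pair the macrophage or monocyte sum was 2.97 FPKM in DMSO and 9.38 FPKM with the inhibitor, and the dendritic cell sum was 3.36 and 14.6 FPKM. The erythroid sum was 0.854 and 1.31 FPKM there. Other sums were lower in the treated library of that pair, at 7.92 and 6.37 FPKM for the stromal or endothelial markers and at 43.7 and 32.2 FPKM for the B cell markers, opposite to the counts. The part of all these markers in the change of *Tiparp* was not tested.

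*Cyp1a1* encodes a monooxygenase that oxidises polycyclic aromatic hydrocarbons and receptor ligands, and is the classical target gene of the receptor. The DMSO libraries held 6 and 3 counts of it and the MAPK13-IN-1 libraries 10 and 20 counts. The levels were 0.233 and 0.110 CPM in DMSO and 0.282 and 0.590 CPM with MAPK13-IN-1. Both treated libraries lay above both DMSO libraries, though DMSO replicate 2 and MAPK13-IN-1 replicate 2 were close. With counts summed over each group, 9 in DMSO and 30 with the inhibitor, the scaled ratio was 2.55 with a 95% exact interval of 1.18 to 6.10, which covers counting error and not the spread between libraries. Without a filter on low counts edgeR gave an adjusted p of 0.129 and DESeq2 gave 0.390, so no difference was called. With 1 library left out, the log2 ratio of the mean levels ran from 0.71 (without MAPK13-IN-1 replicate 3) to 1.97 (without DMSO replicate 2), around 1.35 with all 4 libraries. The replicate 1 pair held 0.275 FPKM in DMSO and 0.608 FPKM with MAPK13-IN-1.

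*Cyp1b1* encodes a related monooxygenase, which also acts on oestrogens. It had 2 and 0 counts in DMSO and 2 and 6 counts with MAPK13-IN-1. Both groups held libraries at or near the limit of detection, and they overlapped. The scaled ratio of the summed counts, 2 against 8, was 3.05 with a 95% exact interval of 0.610 to 29.5, so no difference was detectable at this depth. The log2 ratio of the mean levels, 1.59 with all 4 libraries, was 0.53 without MAPK13-IN-1 replicate 3, 0.58 without DMSO replicate 3 and 2.19 without MAPK13-IN-1 replicate 2. The replicate 1 pair listed 0.00977 FPKM in DMSO and 0.758 FPKM with MAPK13-IN-1, a log2 ratio of 0.80 on the scale of log2(FPKM + 1) and of 2.97 with 0.1 added in place of 1.

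**Figure D2:**
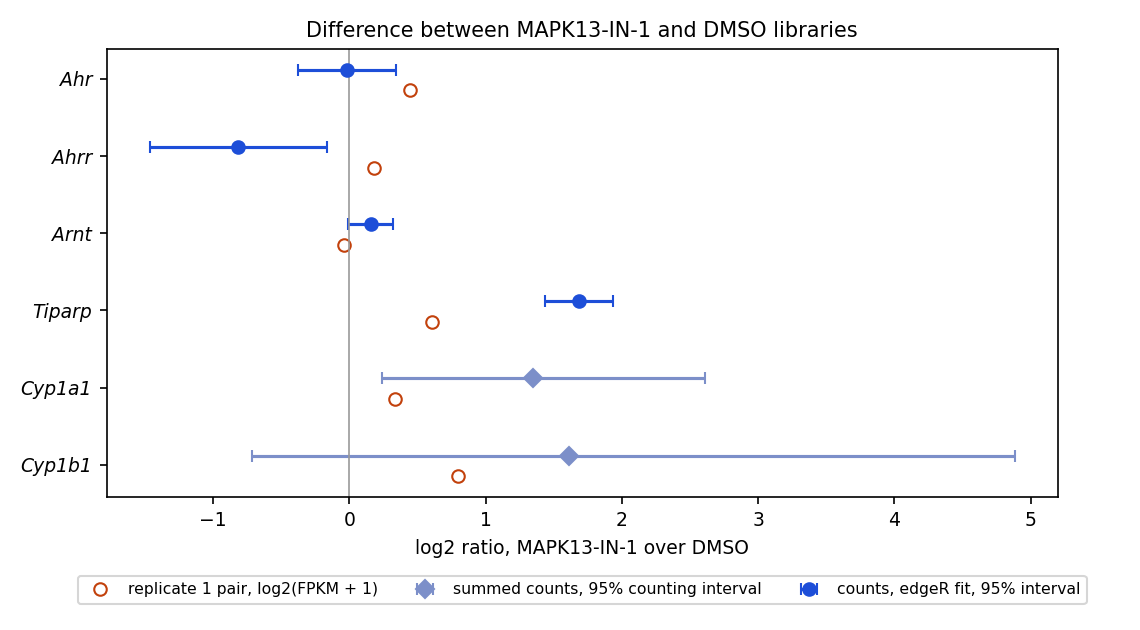
Log2 ratios of MAPK13-IN-1 over DMSO for the 6 genes: filled circles are edgeR log2 fold changes of the counts with 95% intervals, diamonds are ratios of summed counts with 95% exact intervals for the 2 untested genes, and open circles are the replicate 1 pair, with no error since it has 1 library per group. The interval of *Tiparp* lies above 0 and that of *Ahrr* below it, and the open circle of *Ahrr* falls on the other side of 0.

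Over the whole set, 5 of the 6 genes had a higher value in the treated library of the replicate 1 pair, with *Arnt* as the exception, beside 9520 of the 15825 tested genes listed there. The median log2 fold change of the 4 tested genes was 0.068 and that of all genes tested was 0.012.

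Levels can be compared between the genes once they are divided by length, for which the union of the annotated exons was used, from 2.79 kb for *Cyp1a1* to 9.44 kb for *Ahrr*. In DMSO the levels were highest for *Arnt* at 8.18 ± 0.27 CPM per kb and for *Tiparp* at 7.67 ± 1.4 CPM per kb (SD, n = 2), and these neighbours did not differ beyond their spread. *Ahr* followed at 1.03 ± 0.13 CPM per kb. The repressor *Ahrr* stood at 0.177 ± 0.024 CPM per kb, above *Cyp1a1* at 0.0615 ± 0.031 CPM per kb, with no overlap between their libraries, and *Cyp1b1* was at 0.00664 ± 0.0094 CPM per kb. With MAPK13-IN-1 *Tiparp* led at 24.6 ± 2.1 CPM per kb, ahead of *Arnt* at 9.12 ± 0.72 CPM per kb. *Ahr* came next at 1.02 ± 0.096 CPM per kb. *Cyp1a1* at 0.156 ± 0.078 CPM per kb and *Ahrr* at 0.101 ± 0.0033 CPM per kb overlapped, and *Cyp1b1* was the lowest at 0.0200 ± 0.015 CPM per kb. The DMSO library of the replicate 1 pair gave the same order on the FPKM scale, with *Arnt* at 12.7, *Tiparp* at 2.16, *Ahr* at 1.55, *Ahrr* at 0.394, *Cyp1a1* at 0.275 and *Cyp1b1* at 0.00977. The treated library of that pair did not give the order of the treated count libraries, since *Arnt* at 12.3 stood above *Tiparp* at 3.80 and *Cyp1b1* at 0.758 stood above *Cyp1a1* at 0.608 and *Ahrr* at 0.576.

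The genes lie on 5 chromosomes (GRCm38, GENCODE annotation). *Ahr* spans chr12:35497974-35535038 on the minus strand and *Ahrr* chr13:74211118-74292331 on the minus strand. *Arnt* spans chr3:95434388-95497240 and *Tiparp* chr3:65528410-65555518, both on the plus strand. *Cyp1a1* spans chr9:57687928-57703824 on the plus strand and *Cyp1b1* chr17:79701537-79715061 on the minus strand. *Tiparp* shares 223 exonic bases (5.12% of its exons) with the antisense gene *4931440P22Rik*, which had 28 and 46 counts in DMSO and 114 and 72 counts with MAPK13-IN-1. *Ahr* shares 127 exonic bases (2.06%) with the antisense gene *Gm48236*. The sources used here do not say whether strand was used in counting, so reads from such shared stretches cannot be told apart, while *Ahrr*, *Arnt*, *Cyp1a1* and *Cyp1b1* share no exonic bases with another annotated gene.

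The core of the response element that the receptor and ARNT bind, GCGTG, was searched on both strands (as CACGC on the other strand) in promoters of 300 bases, 250 before and 50 after the start of each gene. These letters also occur within the element of the hypoxia-inducible factors, so a match does not tell these factors apart. The RefSeq promoter table (GRCm38.p6) held 5 of the 6 genes, without *Ahr*, and all 5 had at least 1 match, beside 32.4% of all 32851 promoters. *Ahrr* had 3 matches, starting 107, 82 and 27 bases before the gene's start. *Tiparp* had 1 match, starting 170 bases before it and lying on the other strand. *Arnt*, *Cyp1a1* and *Cyp1b1* had 1 match each, starting 29, 54 and 76 bases before the start, that of *Cyp1b1* also lying on the other strand. The *Cyp1a1* window, chr9:57697363-57697662, lies within the annotated span of that gene, at a start downstream of its outermost one. The promoters of the 2 called genes are shown from 5′ to 3′, *Ahrr* from chr13:74292282-74292581 on the minus strand and *Tiparp* from chr3:65528197-65528496 on the plus strand, with the matches in capitals.
Ahrr: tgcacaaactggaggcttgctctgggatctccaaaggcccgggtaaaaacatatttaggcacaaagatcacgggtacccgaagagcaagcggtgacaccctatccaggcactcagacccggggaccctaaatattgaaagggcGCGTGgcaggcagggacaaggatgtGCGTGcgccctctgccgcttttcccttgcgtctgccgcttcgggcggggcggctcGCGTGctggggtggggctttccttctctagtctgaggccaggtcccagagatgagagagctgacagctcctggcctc
Tiparp: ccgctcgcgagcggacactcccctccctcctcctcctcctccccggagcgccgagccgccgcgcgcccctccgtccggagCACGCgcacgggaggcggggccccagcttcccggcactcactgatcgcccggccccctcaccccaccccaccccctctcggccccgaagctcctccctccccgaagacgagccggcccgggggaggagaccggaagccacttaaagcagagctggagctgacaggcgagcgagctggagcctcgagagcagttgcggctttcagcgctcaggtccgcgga
The *Tiparp* window had a GC content of 73.7% and the *Ahrr* window one of 60.3%. A match marks these letters only, and binding was not measured in these libraries.

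The genes whose pattern over the 4 count libraries was closest to each tested gene were found by the root-mean-square difference of log2(CPM + 1), each gene centred on its own mean, among 13373 genes. For *Ahr* these were *Pxylp1* (0.00907), *LOC118568005* (0.0149) and *Itgb3* (0.0157). *Pxylp1* stood at 19.1 and 16.5 CPM in DMSO and at 18.7 and 16.7 CPM with MAPK13-IN-1, which mirrors the higher replicate 2 of *Ahr* in both groups. For *Ahrr* the closest gene was *Gm26782* (0.0087), at 8.22 and 9.37 CPM in DMSO and 5.97 and 6.16 CPM with the inhibitor. The fitted log2 fold change of *Gm26782* was −0.54 against −0.82 for *Ahrr*. In the replicate 1 pair *Gm26782* was the lower with the inhibitor, unlike *Ahrr*, at 2.53 FPKM in DMSO and 2.30 FPKM in the treated library. For *Arnt* the closest gene was *Bri3* (0.00593), at 29.3 and 31.0 CPM in DMSO and 35.6 and 31.5 CPM with the inhibitor. For *Tiparp* it was *Colec11* (0.0367), with 10 and 4 counts in DMSO and 112 and 92 counts with the inhibitor. This likeness rests on the 1 that was added to each level, as the fitted log2 fold change of *Colec11* was 3.45 against 1.68 for *Tiparp*, and in the replicate 1 pair *Colec11* was not higher, at 0.148 FPKM in DMSO and 0.134 FPKM with the inhibitor. With 4 libraries such likeness describes these libraries and nothing more.

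The receptor's cytoplasmic complex was represented by 4 genes, all tested, of which 3 were lower and 1 was higher with MAPK13-IN-1, with a median log2 fold change of −0.28. Among all genes tested 63.8% were called, 31.5% higher and 32.3% lower. *Hsp90aa1*, an inducible HSP90 chaperone, fell from 844 to 464 CPM (log2 fold change −0.86 ± 0.050 SE, edgeR adjusted p = 2.98e-07). *Hsp90ab1*, the constitutive HSP90, rose from 3738 to 5055 CPM (0.44 ± 0.049 SE, adjusted p = 2.42e-05). *Ptges3*, which encodes the HSP90 co-chaperone p23, fell from 116 to 91.4 CPM (−0.34 ± 0.066 SE, adjusted p = 0.00110). The number of genes in this list called lower was 2 with upper-quartile scaling, with library totals and without DMSO replicate 2 or 3.

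The receptor, ARNT and the repressor belong to the bHLH-PAS family. Of a list of other bHLH-PAS factors, coactivators and circadian repressors such as *Per2*, 19 were in the count table and 16 were tested. In this list 7 genes were higher and 5 lower, with a median log2 fold change of 0.17, beside 63.8% called among all genes tested. *Per2*, a repressor of the circadian clock, fell from 40.0 to 18.3 CPM (log2 fold change −1.13 ± 0.10 SE, adjusted p = 6.30e-06). *Clock*, the circadian activator, rose from 18.7 to 42.4 CPM (1.18 ± 0.11 SE, adjusted p = 7.26e-06). Among the hypoxia factors, which also pair with ARNT, *Hif1a* was lower at 270 against 363 CPM (−0.43, adjusted p = 4.25e-05), as was *Hif3a* at 10.6 against 20.97 CPM (−0.99, adjusted p = 1.85e-05). *Epas1*, a hypoxia factor named here after its values were seen, was higher at 7.22 against 4.25 CPM (0.77, adjusted p = 0.00590), a call lost without DMSO replicate 3 (0.49, adjusted p = 0.0760). The number of genes called higher in this list was 4 in place of 7 without DMSO replicate 3 and with DESeq2.

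Of 8 other genes of the receptor's detoxification battery, 4 had enough counts to be tested, with 1 higher, 0 lower and a median log2 fold change of −0.0020. Among all genes tested 63.8% were called, 31.5% higher and 32.3% lower, and the list was not tested against this background. *Ugt1a6a*, a glucuronosyltransferase, had 3 and 11 counts in DMSO and 25 and 38 counts with MAPK13-IN-1 (log2 fold change 1.77 ± 0.54 SE, adjusted p = 0.0154). Its call was lost without DMSO replicate 2 (log2 fold change 1.15, adjusted p = 0.107), without MAPK13-IN-1 replicate 3 (1.40, adjusted p = 0.0852) and with DESeq2 (1.81, adjusted p = 0.0986), and with at least 10 counts required in every library it did not pass the filter and 0 genes of this list were called higher. Without DMSO replicate 3 the log2 fold change was 2.92 (adjusted p = 0.00150), and since it shares 30.4% or more of its exonic bases with each of 8 other *Ugt1a* genes its counts are uncertain. The oxidoreductase gene *Nqo1* stood at 2.55 CPM in DMSO and 2.39 CPM with the inhibitor (adjusted p = 0.736), with a log2 fold change of −0.092 that turned to 0.032 with library totals and to 0.057 without DMSO replicate 2. *Cyp2s1* stood at 11.2 and 9.61 CPM (adjusted p = 0.228), and was called lower without MAPK13-IN-1 replicate 3 (adjusted p = 0.00220). *Nfe2l2*, which encodes the oxidative stress factor NRF2, stood at 45.2 and 48.0 CPM (adjusted p = 0.328), and was called higher with library totals (adjusted p = 0.0319). *Gsta1* had 0 counts in all 4 libraries, which allows up to 0.116 CPM.

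Helper and regulatory T cell genes linked to the receptor were measured in 13 cases, all tested, and 3 were higher and 8 lower with MAPK13-IN-1, with a median log2 fold change of −0.71, beside 31.5% higher and 32.3% lower among all genes tested. The number called higher was 1 without DMSO replicate 2 and with DESeq2, and with at least 10 counts required in every library 2 were higher and 6 lower. In the same libraries 7 of the 8 general CD4 T cell markers were lower, with a median log2 fold change of −1.24, and their part in these changes was not tested. *Maf*, a transcription factor that works with the receptor in IL-10 expression, fell from 38.0 to 7.85 CPM (log2 fold change −2.28 ± 0.10 SE, adjusted p = 7.32e-08). *Foxp3*, the factor of regulatory T cells, fell from 59.5 to 22.0 CPM (−1.44 ± 0.093 SE, adjusted p = 5.90e-07), and its counts are uncertain since it shares 18.6% of its exonic bases with *Flicr* on the same strand and 12.9% with *Ccdc22* on the other. *Ikzf3* fell from 208 to 117 CPM (−0.83 ± 0.058 SE, adjusted p = 9.98e-07). *Il22*, a cytokine gene that depends on the receptor in helper cells, had 96 and 110 counts in DMSO and 17 counts in each treated library (−2.98 ± 0.27 SE, adjusted p = 5.54e-06). In the replicate 1 pair 10 of the 13 genes were higher with the inhibitor, beside 9520 of 15825 tested genes, *Il22* among them at 56.1 against 2.01 FPKM. Of the 8 general CD4 T cell markers, 3 were higher and 5 lower in that pair. Their sum was 1408 FPKM in DMSO and 1171 FPKM with the inhibitor.

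Enzymes of tryptophan use, some of which make or remove ligands of the receptor, were in the count table for 14 genes. Of these, 12 were tested, with 4 higher, 4 lower and a median log2 fold change of −0.15, beside 63.8% called among all genes tested. *Il4i1*, an amino acid oxidase, fell from 75.9 to 9.40 CPM (log2 fold change −3.02 ± 0.11 SE, adjusted p = 1.86e-08), while *Il4i1b* rose from 0.422 to 5.38 CPM (3.68 ± 0.39 SE, adjusted p = 1.71e-05). The log2 fold change of *Il4i1b*, with 18 and 4 counts in DMSO, was 5.14 with DMSO replicate 2 left out and 2.93 with DMSO replicate 3 left out. It did not pass a filter of at least 10 counts in every library, under which 3 genes of this list were higher and 3 lower. Both are uncertain, since how reads were divided between the 2 symbols is not given and 83.9% of the exonic bases of *Il4i1* lie opposite *Tbc1d17*. *Wars*, the tryptophanyl-tRNA synthetase, fell from 395 to 141 CPM (−1.49 ± 0.055 SE, adjusted p = 2.09e-08). *Ido2*, an indoleamine dioxygenase, fell from 16.2 to 4.60 CPM (−1.82 ± 0.16 SE, adjusted p = 4.26e-06). *Aadat* had 0 counts in all 4 libraries.

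The electron donors of the CYP1 enzymes comprised 4 genes, all tested, with 1 higher, 2 lower and a median log2 fold change of −0.21, beside 63.8% called among all genes tested. *Por*, the P450 reductase that serves CYP1A1 and CYP1B1, rose from 55.9 to 82.6 CPM (log2 fold change 0.56 ± 0.068 SE, adjusted p = 4.16e-05). *Cyb5b* fell from 149 to 73.1 CPM (−1.03 ± 0.085 SE, adjusted p = 2.97e-06) and *Cyb5r3* from 108 to 81.8 CPM (−0.40, adjusted p = 0.00167). *Cyb5a* stood at 52.8 CPM in DMSO and 51.9 CPM with the inhibitor (edgeR adjusted p = 0.784), with a log2 fold change of −0.026. That value turned to 0.055 with upper-quartile scaling and 0.10 with library totals. It was also positive with at least 10 counts in every library (0.020) and without MAPK13-IN-1 replicate 3 (0.036).

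**Figure D3:**
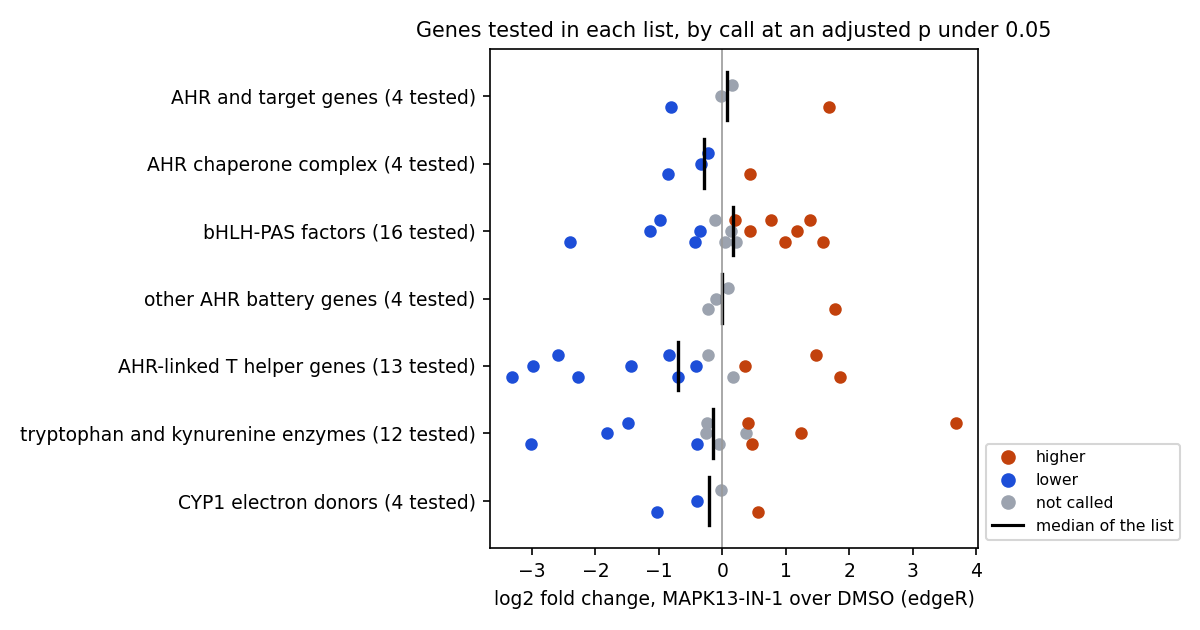
Each point is 1 tested gene, placed by its edgeR log2 fold change (MAPK13-IN-1 over DMSO, n = 2 libraries per group) within its list, coloured by call at an adjusted p-value under 0.05, with the number tested in brackets and the list's median as a black line. Points lie on both sides of 0 in every list, and the medians run from −0.71 for the T helper genes to 0.17 for the bHLH-PAS factors.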

How the data were processed

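RNA-seq of 6 libraries was used, 3 per group. Per the labels, the authors processed the reads of replicates 2 and 3 with fastp 0.21.0, HISAT2 2.1.0, StringTie 2.1.5 and DESeq2 1.30.1 on mm10, and those of the replicate 1 pair with FastQC and HISAT2. The annotation and strand setting are not given in the sources used here. The authors deposited raw counts per gene for replicates 2 and 3, and for the replicate 1 pair deposited values read as FPKM, a unit inferred from the values. Counts were analysed with edgeR 4.0.16 in R 4.3.3 (filterByExpr, minimum count 10 and minimum total 15; TMM; quasi-likelihood test, no covariate; Benjamini-Hochberg), and the code was tested on simulated data. DESeq2 1.42.0 served as an alternative, beside other scalings, filters, a threshold of 0.01, a replicate block and each library left out. Log2 ratios of FPKM used a pseudocount of 1 (alternative 0.1). Intervals of summed counts are exact binomial. Counts of same-group replicates differed beyond sampling noise (mean chi-square per gene 2.78 in DMSO and 7.44 with MAPK13-IN-1). Positions and exon lengths came from GENCODE M21. Members and gene lists were chosen with earlier results of these data known. Named were the 6 genes, the 4 smallest p-values of each list, list genes with 0 counts in all libraries, the genes of closest pattern (3 for *Ahr*, 1 for the others, mean of at least 1 CPM) and marker genes. A gene that this rule would name is not reported here.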

Additional observations from a re-analysis of the deposited data

Results flagged for a closer look

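For *Ahrr* and 9 genes of the lists, both treated libraries of replicates 2 and 3 lay on 1 side of both DMSO libraries, while the replicate 1 pair differed in the opposite direction. These differences between the library batches were not tested, and with 1 library per group in the replicate 1 pair its values have no error. On the scale of log2(FPKM + 1), MAPK13-IN-1 over DMSO, the ratio in that pair was 0.18 for *Ahrr*, which was lower with the inhibitor in the counts. Among other genes that were lower in the counts, the ratio was 4.24 for *Il22*, 2.103 for *Il4i1*, 0.49 for *Cyb5r3*, 0.096 for *Foxp3*, 0.057 for *Ido2* and 0.027 for *Hif3a*. Among genes that were higher in the counts, it was −0.58 for *Hsp90ab1*, −0.31 for *Ugt1a6a* and −0.22 for *Il4i1b*.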

How the results depend on the processing

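*Tiparp* was called higher under all 11 alternatives, and left-out libraries gave log2 fold changes of 1.49 to 1.87. The sign of *Ahr*, which was not called under any of the 11, was positive with upper-quartile scaling (0.061), library totals (0.10) and at least 10 counts in every library (0.025), and ran from −0.15 to 0.095 over the left-out libraries. The call of *Ahrr* was lost with library totals (−0.69) and DESeq2 (−0.81) and in 2 of the 4 fits with a library left out, whose values ran from −0.96 to −0.68. *Arnt* passed with upper-quartile scaling (0.24), library totals (0.28) and at least 10 counts in every library (0.20), and left-out libraries gave 0.073 to 0.23. The number of the 6 genes called was 1 with DESeq2 and 1 at a threshold of 0.01, and 1 to 3 over the left-out libraries. Library totals move the median log2 fold change of all genes from 0.012 to 0.136; relative to that median *Ahr* stood at −0.031, *Ahrr* at −0.83, *Arnt* at 0.15 and *Tiparp* at 1.67, as under TMM within rounding (−0.032, −0.83, 0.15 and 1.67). The cause of these shifts was not tested beyond that. Where a library was left out, its group had 1 library, assumed to vary like the other group. The labels do not say that a replicate number marks a shared batch, and same-numbered libraries did not deviate together (correlation across genes −0.0064), so they share a number only. With the replicate number as a block, 10645 genes were called in place of 10374, and 2 of the 6 genes. The balance of all calls, 5122 higher and 5252 lower under TMM, depended on scaling. It was 6170 higher and 4304 lower with library totals, and 5823 higher and 4633 lower with upper-quartile scaling. DESeq2 called 8307 of 19201 genes. *Cyp1a1* and *Cyp1b1* gave no value under the block or with at least 10 counts in every library, nor *Cyp1b1* without DMSO replicate 2, which leaves 0 counts in DMSO.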
